A study of Mus musculus with 25 samples.

Results

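The genes described here are 48 genes that copy DNA in S phase: those that license origins, start and drive the replication fork, supply nucleotides and restore chromatin behind it. They were taken as a fixed list and matched by symbol to the array annotation. All 48 had a probe set, among 19938 genes measured, and 47 of them were among the 15951 genes kept after dim genes were left out. The study asked how loss of the tumour suppressors Rb and p53 changes the liver's reply to a carcinogen. Livers came from mice with Cre recombinase under the albumin promoter, active in hepatocytes, so that endothelial and blood cells keep the floxed genes. By the labels' Rb and p53 status, the groups were DKO (Rb and p53 both floxed), RbKO (Rb floxed), p53KO (p53 floxed) and WT, whose Cre and floxed alleles the labels do not state, each taken 24 h after diethylnitrosamine (DEN, 20 mg/kg at 14 days of age), and untreated DKO and WT of the same age. They held 5 DEN DKO, 4 DEN RbKO, 5 DEN p53KO, 5 DEN WT, 3 untreated DKO and 3 untreated WT arrays. DEN becomes an alkylating agent in hepatocytes. The strain is FVB;129 throughout and the sexes are not given. The series text names saline for the controls, whereas their labels give no treatment.

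Before S phase, the origin recognition complex, Cdc6 and Cdt1 load a ring of Mcm proteins onto DNA, and geminin (Gmnn) blocks Cdt1 once that is done. The Cdc7 and Dbf4 kinase, Cdc45 and the GINS complex turn the ring into a moving helicase, primase and polymerase alpha begin each strand, and polymerases delta and epsilon extend it under the Pcna clamp that replication factor C loads. Many of these genes are targets of E2F transcription factors, which the Rb protein holds back in resting cells. A liver at 14 days is still growing and most adult hepatocytes are quiescent.

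The 5 promoters below belong to the members of smallest p, among those with an entry in the promoter table, in the 2 comparisons with most calls. These, with 16 each, are RbKO against WT after DEN and DEN against untreated in DKO. They run from 250 bases before to 50 after the start in RefSeq on GRCm38.p6, on the gene's own strand, and capitals mark a match to the E2F words TTTGGCGC, TTTCCCGC, TTTGCCGC and TTTCGCGC, searched on both strands. Pola1 (chrX:93632106-93632405, minus strand) and Pole2 (chr12:69228141-69228440, minus strand) hold the reverse complement GCGCCAAA at -138 and 10 from the start, and Hells (chr19:38930740-38931039, plus strand) holds TTTCCCGC at -62. Rrm2 (chr12:24708004-24708303, plus strand) and Rfc4 (chr16:23127681-23127980, minus strand) hold none of these words in the window.
Pola1: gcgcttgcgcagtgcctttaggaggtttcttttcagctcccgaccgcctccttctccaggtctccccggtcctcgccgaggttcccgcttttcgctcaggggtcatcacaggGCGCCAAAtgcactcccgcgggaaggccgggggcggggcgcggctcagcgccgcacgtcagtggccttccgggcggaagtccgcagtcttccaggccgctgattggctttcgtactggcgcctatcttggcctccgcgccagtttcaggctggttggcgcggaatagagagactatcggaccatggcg
Hells: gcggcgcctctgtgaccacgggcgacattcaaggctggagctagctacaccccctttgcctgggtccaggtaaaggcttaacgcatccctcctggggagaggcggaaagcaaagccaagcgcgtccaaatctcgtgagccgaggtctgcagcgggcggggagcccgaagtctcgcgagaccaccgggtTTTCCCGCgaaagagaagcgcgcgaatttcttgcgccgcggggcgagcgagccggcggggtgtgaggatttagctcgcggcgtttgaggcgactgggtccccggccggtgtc
Pole2: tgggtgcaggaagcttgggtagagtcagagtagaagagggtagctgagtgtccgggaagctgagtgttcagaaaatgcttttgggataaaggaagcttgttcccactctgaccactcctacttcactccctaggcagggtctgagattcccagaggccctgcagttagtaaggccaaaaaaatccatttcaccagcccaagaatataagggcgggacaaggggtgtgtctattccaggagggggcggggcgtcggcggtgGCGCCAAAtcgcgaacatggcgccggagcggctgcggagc
Rrm2: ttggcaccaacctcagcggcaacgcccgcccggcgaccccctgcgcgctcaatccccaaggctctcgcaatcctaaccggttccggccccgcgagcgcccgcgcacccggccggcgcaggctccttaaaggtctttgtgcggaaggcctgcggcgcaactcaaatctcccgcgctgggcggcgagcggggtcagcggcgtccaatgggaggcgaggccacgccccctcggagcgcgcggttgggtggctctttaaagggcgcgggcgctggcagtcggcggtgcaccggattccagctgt
Rfc4: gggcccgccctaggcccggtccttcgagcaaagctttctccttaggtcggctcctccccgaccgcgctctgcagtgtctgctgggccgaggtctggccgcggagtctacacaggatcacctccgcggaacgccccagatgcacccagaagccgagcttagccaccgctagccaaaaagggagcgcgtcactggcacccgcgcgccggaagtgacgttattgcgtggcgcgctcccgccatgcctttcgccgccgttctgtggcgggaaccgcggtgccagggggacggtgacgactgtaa

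Of the 40 members with an entry in the promoter table, 13 (32.5%) held at least 1 of the words, against 626 of 27025 genes (2.32%). Gmnn, Mcm4, Gins1, Gins2, Gins4, Prim2, Pole and Rfc2 have no entry. Mcm6 held 3 matches, and in Mcm5 and Mcm6 neighbouring matches overlapped. The share was 4 of 12 among members called in RbKO against WT after DEN and 9 of 27 among those not called, 33.3% each.

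From the serial numbers and prefixes in their names, the arrays form 3 sets, and what the sets stand for is not stated. The first has 16 arrays and every group, set 2 has the array labelled DEN RbKO replicate 4, DEN WT replicate 4, the array labelled DEN WT replicate 5 and untreated WT replicate 3, and set 3 has DEN DKO replicates 4 and 5 and DEN p53KO replicates 3, 4 and 5. Set 2 stood apart for the replication genes, so each comparison was fitted with the set as a term and values within set 1 are given beside it. Replicates correlated at 0.941 to 0.993 over all genes, and no pair of arrays was identical. The labels do not say that replicates were separate animals, so a p-value here measures sample-to-sample spread, which may be technical. Rb1, the targeted gene, had a log2 signal of 5.18, 5.57, 5.51, 5.82 and 5.35 in DEN DKO, 5.55, 5.64, 5.79 and 6.28 in DEN RbKO and 5.56, 5.76, 5.93, 5.91 and 5.68 in DEN p53KO. It was at 6.02, 5.90, 5.82, 5.97 and 5.04 in DEN WT, 5.02, 5.02 and 4.76 in untreated DKO and 5.34, 5.30 and 5.76 in untreated WT. The array labelled DEN RbKO replicate 4 had the highest Rb1 signal of the 25, against its label, and the array labelled DEN WT replicate 5 had less than any DEN DKO or DEN RbKO array, also against its label. Without this DEN WT array the members called, given below for all arrays, would number 4 in DEN WT against untreated WT, 12 in DEN RbKO, 11 in DEN DKO and 5 in DEN p53KO against DEN WT, 3 in the difference of responses and 1 in the additivity contrast. Shares of all genes for those counts are not given. The RbKO counts and calls are also given without the RbKO array of set 2 or within set 1. Rb1 differed by -0.50 (SE 0.22, adjusted p = 0.336) in untreated DKO from untreated WT, by 0.08 (SE 0.18, adjusted p = 0.830) in DEN RbKO from DEN WT and by -0.29 (SE 0.19, adjusted p = 0.355) in DEN DKO from DEN WT. Within set 1 these were -0.39, -0.25 and -0.49. Probe sets of this array type average along a transcript and a floxed allele loses only part of it, so this is a weak check of the deletion. Trp53 was not analysed here. All 8 hepatocyte markers were bright, with summed signals of 14.63 to 14.69 in DEN DKO, 14.54 to 14.82 in DEN RbKO, 14.63 to 14.71 in DEN p53KO, 14.63 to 14.80 in DEN WT, 14.66 to 14.80 in untreated DKO and 14.88 to 15.00 in untreated WT on the log2 scale.

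Averaged over the 47 genes, the log2 signal was 6.20 ± 0.09 (SD, n = 5) in DEN DKO, 6.16 ± 0.19 (SD, n = 4) in DEN RbKO, 6.20 ± 0.16 (SD, n = 5) in DEN p53KO, 5.74 ± 0.35 (SD, n = 5) in DEN WT, 6.05 ± 0.12 (SD, n = 3) in untreated DKO and 5.52 ± 0.10 (SD, n = 3) in untreated WT. Within set 1 alone, the ranges were 6.18 to 6.33 in DEN DKO, 6.19 to 6.32 in DEN RbKO, 5.95 to 6.14 in DEN p53KO, 5.88 to 6.05 in DEN WT, 5.97 to 6.19 in untreated DKO and 5.54 to 5.61 in untreated WT. The untreated WT arrays lay lowest in set 1, with no overlap with another group. In DEN WT the set 2 arrays, at 5.28 to 5.45, lay below the 3 of set 1. Over the same set 1 arrays the mean of the 8 hepatocyte markers was highest in untreated WT, at 10.96 to 11.02 in DEN DKO, 10.87 to 10.98 in DEN RbKO, 11.08 to 11.12 in DEN p53KO, 11.15 to 11.24 in DEN WT, 11.16 to 11.22 in untreated DKO and 11.46 to 11.62 in untreated WT, and its part in the results was not tested. In whole liver, more cells in S phase and more of these RNAs per cell cannot be told apart.

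**Figure D1:**
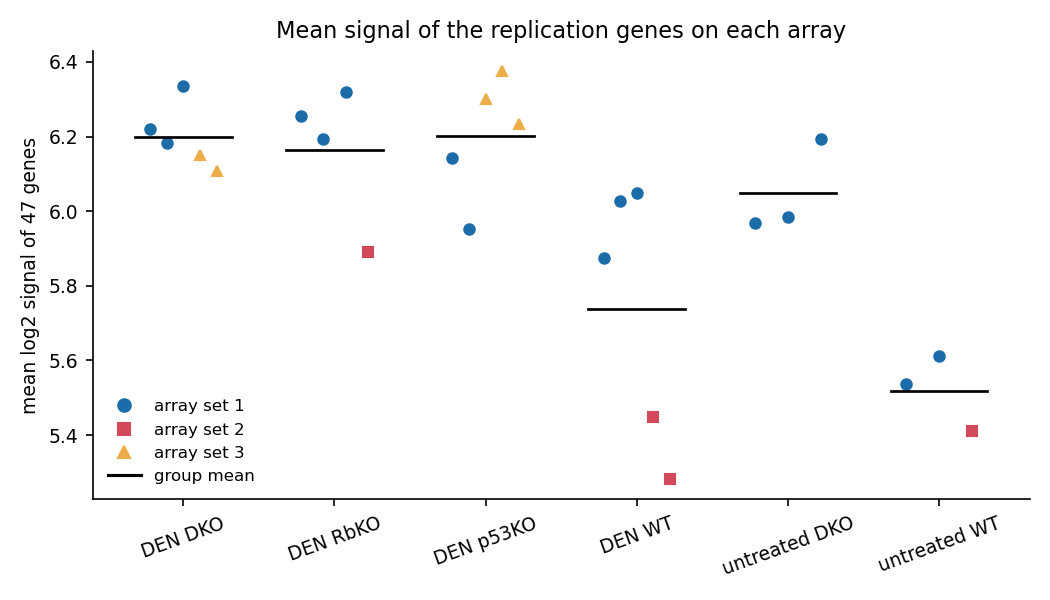
Each point is the mean log2 signal of the 47 replication genes on 1 array, by group, with colour and shape for the array set and a line for the group mean. Untreated WT is lowest within set 1 at 5.54 to 5.61, and the set 2 arrays of DEN RbKO and DEN WT lie below the other arrays of their groups.

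What the carcinogen does to these genes in a WT liver was asked by DEN WT against untreated WT. Rrm2, the regulated subunit of ribonucleotide reductase, and Pcna, the sliding clamp, rose. Rrm2 had a log2 signal of 7.13, 7.57, 7.61, 6.69 and 6.14 in DEN WT and 5.83, 6.61 and 5.98 in untreated WT. All 3 set 1 arrays of DEN WT lay above both set 1 arrays of untreated WT, and the array labelled DEN WT replicate 5 overlapped with the untreated group. The difference was 0.93 (SE 0.19, adjusted p = 0.00400), a 1.9-fold rise, and the call ended without untreated WT replicate 1 (adjusted p = 0.0803). Pcna was at 10.01, 10.10, 10.28, 9.88 and 9.39 in DEN WT and 9.54, 9.68 and 9.41 in untreated WT. Only the array labelled DEN WT replicate 5, in set 2, lay at or below the untreated arrays. Its difference was 0.42 (SE 0.12, adjusted p = 0.0477), kept in 2 of 8 fits that each left out 1 array, and its highest adjusted p was 0.263, with untreated WT replicate 1 left out. A second Pcna probe set gave 0.42 (SE 0.12, adjusted p = 0.0444). The 2 Pcna probe sets correlated at 0.9999 over the arrays, with the same values on most, so the second is not a separate check of the call. Whether either also reads a near-identical copy of the gene was not tested.

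Of the 47 genes, 2 were called higher in DEN WT and 0 lower, where 2.08% and 1.91% of all genes were called higher and lower. By limma 12 had an unadjusted p under 0.05, a cutoff at which the share of all genes is not given. A total of 40 lay above 0, with a median of 0.28, against 0.02 over all genes. The array sets did not give the same picture. Within set 1 (3 DEN WT and 2 untreated WT arrays) 15 were called higher and 0 lower, at a median of 0.35, where 5.00% and 5.96% of all genes were called. Within set 2 (2 DEN WT arrays and 1 untreated WT array) the median was -0.04. The strongest in set 1 were the primase subunit gene Prim1 at 1.19 (adjusted p = 3.10e-05), the kinase activator gene Dbf4 at 1.24 (adjusted p = 3.75e-05) and Rrm2 at 1.22 (adjusted p = 0.000387). In set 2 the same differences were -0.26, -0.92 and 0.44. By role, set 1 calls numbered 3 of 11 licensing genes, 2 of 7 helicase genes, 1 of 8 polymerase genes, 5 of 11 clamp and strand genes, 3 of 5 nucleotide genes and 1 of 5 chromatin genes. Markers moved in the same set 1 arrays: 3 of 8 hepatocyte, 2 of 7 endothelial, 1 of 7 stellate and 1 of 5 lymphocyte markers were called lower, and 1 of 10 neutrophil and 1 of 8 macrophage markers higher. The mean log2 signal of the hepatocyte list in set 1 was 11.15 to 11.24 in DEN WT and 11.46 to 11.62 in untreated WT. In the fit over all arrays 1 hepatocyte, 1 endothelial and 1 stellate marker were lower and 1 neutrophil marker higher. Their part in the result was not tested.

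The same question in livers labelled as floxed for both suppressors compared DEN DKO with untreated DKO. The calls went both ways, though the share called lower was no larger than among all genes. The genes called higher were Gmnn, Orc6 and Cdc6 of licensing, Dbf4, Gins1 and Gins3 of firing, Pola1, the catalytic subunit of polymerase alpha, Rfc4 of the clamp loader, Rrm2, and Hells, a chromatin remodeller needed for DNA methylation. Those called lower were Mcm2, Gins2, Pold2 (a polymerase delta subunit), Rfc2 (another clamp loader subunit), Tk1 (thymidine kinase) and Chaf1b (a subunit of the CAF-1 histone chaperone). In all 10 of 47 were called higher and 6 lower, where 4.49% and 16.5% of all genes were. With the arrays median-centred the counts were 8 and 8, and no share of all genes is given for that setting. The median was 0.09. In set 1, which holds every untreated DKO array, 15 were higher and 6 lower, against 6.56% and 18.7% of all genes.

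Gmnn had a log2 signal of 6.54, 6.73, 6.81, 6.19 and 6.64 in DEN DKO and 5.85, 5.52 and 5.94 in untreated DKO. The groups did not overlap, and the difference was 0.93 (SE 0.17, adjusted p = 0.000246), 1.9-fold. Rfc4 was at 6.79, 6.58, 7.07, 6.69 and 6.37 in DEN DKO and 5.47, 5.58 and 6.02 in untreated DKO, again apart, a difference of 1.02 (SE 0.23, adjusted p = 0.00196). Rrm2 was at 7.41, 7.24, 7.50, 8.18 and 7.91 in DEN DKO and 6.47, 6.45 and 6.51 in untreated DKO. The untreated arrays lay within a narrow band and the DEN arrays all above it, by 0.96 (SE 0.20, adjusted p = 0.000982). Rfc2 was at 5.04, 5.51, 5.42, 5.19 and 4.70 in DEN DKO and 6.14, 6.17 and 6.15 in untreated DKO. Every DEN array was below every untreated one, and Rfc2 fell, at -0.94 (SE 0.17, adjusted p = 0.000224). Gins2 was at 6.15, 6.12, 5.82, 5.99 and 5.56 in DEN DKO and 6.49, 6.70 and 6.99 in untreated DKO, without overlap, at -0.83 (SE 0.20, adjusted p = 0.00389).

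Hells rose by 1.23 (SE 0.29, adjusted p = 0.00289), Dbf4 by 1.01 (SE 0.26, adjusted p = 0.00654), Gins3 by 0.55 (SE 0.13, adjusted p = 0.00380) and Chaf1b was lower at -0.73 (SE 0.20, adjusted p = 0.00797). These 9 calls were kept whichever array was left out. The other 7 were ended by at least 1 array: Gins1 at 0.65 (adjusted p = 0.0576 without untreated DKO replicate 1), Pola1 at 0.65 (0.0578 without untreated DKO replicate 2), Mcm2 at -0.44 (0.123 without untreated DKO replicate 3) and Cdc6 at 0.61 (0.101 without DEN DKO replicate 3). Orc6 was at 0.55 (0.179 without untreated DKO replicate 1), Pold2 at -0.54 (0.159 without untreated DKO replicate 3) and Tk1 at -0.58 (0.199 without untreated DKO replicate 1). Of 8 such fits each, the call was kept in 7 for Gins1 and Pola1, 6 for Mcm2, 5 for Cdc6, Orc6 and Pold2 and 3 for Tk1. A second probe set of Tk1 gave -0.77 (SE 0.21, adjusted p = 0.0101). The 2 Tk1 probe sets correlated at only 0.31 over the arrays, where the 2 of Rpa3 correlated at 0.92. Whether both Tk1 probe sets read the same transcript was not tested. For Rpa3, a subunit of the single-strand binding protein, the probe set used throughout was not called at 0.49 (SE 0.22, adjusted p = 0.114), whereas the second gave 0.69 (SE 0.15, adjusted p = 0.00182). Markers of other cells moved in the same comparison: 6 of 7 endothelial, 5 of 10 neutrophil, 4 of 7 stellate, 3 of 8 macrophage and 2 of 5 lymphocyte markers were called lower. Of 8 hepatocyte markers 2 were higher and 2 lower, and of 6 erythroid markers 1 was higher and 2 lower. The log2 summed endothelial signal was 8.61 to 8.97 in DEN DKO and 9.64 to 9.76 in untreated DKO, and that of the neutrophil list 8.94 to 10.51 in DEN DKO and 10.50 to 11.40 in untreated DKO. Their part in the result was not tested.

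Whether the reply to DEN differed between DKO and WT was tested as the difference of the 2 responses. For Rfc2 the response of DKO minus that of WT was -1.28 (SE 0.23, adjusted p = 0.00106), and -0.90 in set 1. In WT it was at 5.77, 5.70, 5.85, 5.17 and 5.21 after DEN and 5.54, 5.87 and 4.36 untreated, groups that overlap. Gins2 followed at -1.11 (SE 0.28, adjusted p = 0.0112), and -1.02 in set 1. It had 6.44, 6.33, 6.59, 5.80 and 5.46 in DEN WT and 6.10, 6.16 and 5.39 in untreated WT, with all set 1 arrays of DEN WT above those of untreated WT. Pola1 was at 6.05, 5.95 and 6.31 in untreated DKO and 5.85, 6.00 and 6.28 in untreated WT, which overlap. Its difference of responses had the opposite sign at 0.93 (SE 0.24, adjusted p = 0.0154) and 0.74 in set 1, and with untreated WT replicate 3 left out it was no longer called (adjusted p = 0.0789). Over all members 1 was called above 0 and 2 below, against 1.36% and 8.54% of all genes, and in set 1 the counts were 1 and 3, against 1.27% and 6.09%. After median-centring of the arrays the counts were 1 and 7, again without a share of all genes. The second Tk1 probe set, weakly correlated with the one used, was called below 0 as well, at -1.15 (SE 0.29, adjusted p = 0.0125). The one used gave -0.45 (SE 0.28, adjusted p = 0.357). The median was -0.15, against -0.03 over all genes. In the same contrast 4 of 10 neutrophil, 4 of 7 endothelial and 1 of 7 stellate markers were called below 0, and 1 of 8 hepatocyte and 1 of 6 erythroid markers above it.

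The effect of the genotype before damage was asked by untreated DKO against untreated WT. Prim1 and Mcm6, a subunit of the helicase ring, were higher in the DKO liver. Prim1 was at 7.45, 7.64 and 7.75 in untreated DKO and 6.21, 6.48 and 6.97 in untreated WT, with every DKO array above every WT array and a difference of 1.05 (SE 0.26, adjusted p = 0.0477). Mcm6 was at 7.37, 7.27 and 7.69 in untreated DKO and 6.25, 6.49 and 6.37 in untreated WT, again without overlap, with a difference of 0.96 (SE 0.24, adjusted p = 0.0419). Each call was kept in only 1 of 6 fits that left out 1 array, and with untreated WT replicate 1 left out the adjusted p was 0.285 for Prim1 and 0.236 for Mcm6. These were the 2 of 47 called higher, with 0 lower, where 0.865% and 0.244% of all genes were called. An unadjusted p under 0.05 was found for 20 of the 47, a looser cutoff to which those shares of all genes do not apply. In all 45 lay above 0, at a median of 0.37 against 0.01 for all genes. In set 1 (3 DKO and 2 WT arrays) 15 were higher and 0 lower, against 3.79% and 1.80% of all genes. There Rfc3 was at 0.99 (adjusted p = 0.000312), Rpa3 at 1.07 (adjusted p = 0.00327) and the ligase gene Lig1, which seals lagging-strand fragments, at 0.82 (adjusted p = 0.0205). Neutrophil and myeloid markers were higher in the same arrays, 3 of 10 called over all arrays and 7 of 10 in set 1. Over all arrays the log2 summed signal of this list was 10.50 to 11.40 in untreated DKO and 8.53 to 8.63 in untreated WT. In set 1, 2 of 8 hepatocyte markers were called lower. The part of the neutrophil and hepatocyte markers in the result was not tested.

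Loss of Rb alone was asked by DEN RbKO against DEN WT. In the fit over all arrays, genes of every role rose: Mcm4, Mcm6 and Gmnn of licensing, Dbf4 and Gins1 of firing, Pola1, Prim1 and the epsilon subunit Pole2, Rfc1 and Rfc4 of the clamp loader, Rrm1, Rrm2 and the thymidylate synthase gene Tyms, and Hells and the maintenance methyltransferase gene Dnmt1. Rfc2 was the single one called lower. In all 15 of 47 were called higher and 1 lower, where 5.23% and 6.13% of all genes were. The median was 0.34, against -0.04 over all genes. The count rests in part on the array labelled DEN RbKO replicate 4, the only RbKO array of set 2. Without it 6 were called. In set 1 the count was 7 higher and 0 lower, against 0.959% and 2.38% of all genes. Without the arrays of set 2 it was 5 higher and 0 lower, against 0.307% and 0.903%.

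Mcm4, a ring subunit, was at 6.41, 6.31, 6.27 and 6.00 in DEN RbKO and 5.27, 5.53, 5.71, 5.12 and 4.88 in DEN WT. All RbKO arrays lay above all WT arrays, by 0.88 (SE 0.13, adjusted p = 0.00131). Pola1 was at 6.52, 6.59, 6.64 and 7.17 in DEN RbKO and 5.61, 6.07, 6.04, 5.46 and 5.67 in DEN WT, also without overlap, by 0.98 (SE 0.15, adjusted p = 0.00131). Hells was at 7.75, 7.66, 7.78 and 7.23 in DEN RbKO and 6.41, 6.76, 6.94, 5.30 and 4.20 in DEN WT. Its lowest RbKO array and both low WT arrays belong to set 2, and the difference was 1.53 (SE 0.25, adjusted p = 0.00133), 2.88-fold. Pole2 was at 5.19, 5.02, 4.85 and 4.94 in DEN RbKO and 4.46, 4.19, 4.35, 3.77 and 3.42 in DEN WT, apart in every array, by 0.90 (SE 0.16, adjusted p = 0.00151). Prim1 was at 8.23, 8.18, 8.38 and 8.90 in DEN RbKO and 7.48, 7.46, 7.67, 7.16 and 6.26 in DEN WT, by 1.21 (SE 0.21, adjusted p = 0.00151). These 5 and Gmnn (at 0.55) were called whichever array was left out, and all 6 were called in set 1, where Dnmt1 at 0.59 was the seventh.

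The other 10 calls ended without the array labelled DEN RbKO replicate 4. They were Mcm6 at 1.0 (adjusted p = 0.0585 without it), Rfc4 at 0.90 (0.0901), Rrm1 at 0.84 (0.184), Gins1 at 0.61 (0.124) and Dnmt1 at 0.63 (0.0668). Next came Rfc1 at 0.46 (0.0905), Dbf4 at 0.84 (0.149), Rrm2 at 0.61 (0.264), Tyms at 0.53 (0.215) and Rfc2 at -0.45 (0.211). For most of them the 2 array sets gave unlike sizes. Rrm1 was at 0.36 in set 1 and 1.82 in set 2, Mcm6 at 0.57 and 1.92, and Hells at 1.03 and 2.48, whereas Mcm4 was at 0.83 and 1.0 and Gmnn at 0.64 and 0.24. Of 9 fits that each left out 1 array, Rfc2 kept its call in 2, Tyms in 4, Dbf4 in 6, Rrm2 in 7 and the other 6 in 8. The second Rpa3 probe set was called at 0.40 (SE 0.13, adjusted p = 0.0473), where the one used gave 0.44 (SE 0.19, adjusted p = 0.136). Of the marker lists, 1 of 8 hepatocyte and 1 of 8 macrophage markers were called lower and 1 of 7 stellate markers higher, and no neutrophil, endothelial, lymphocyte, erythroid or bile duct marker was called.

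**Figure D2:**
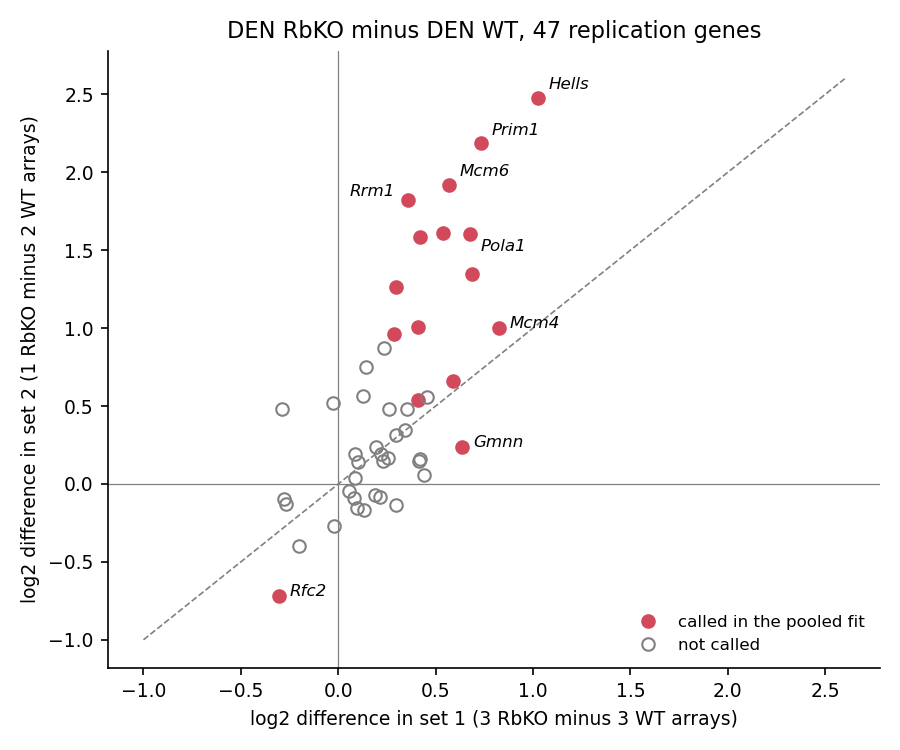
Each point is 1 of 47 replication genes, with the log2 difference of DEN RbKO minus DEN WT in set 1 on the x axis and in set 2 on the y axis; filled points were called in the fit over all sets, and the dashed line marks equal differences. Hells lies at 1.03 in set 1 and 2.48 in set 2, and most called genes lie above the line.

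Loss of p53 alone was asked by DEN p53KO against DEN WT, and Rfc4, Gmnn, Rpa3 and Prim1 were higher. Rfc4 was at 6.80, 6.54, 6.98, 6.72 and 7.01 in DEN p53KO and 5.88, 6.06, 6.06, 5.14 and 5.20 in DEN WT. The lowest p53KO array was above the highest WT array, and the difference was 1.08 (SE 0.23, adjusted p = 0.0186), or 0.67 in set 1 where it was not called (adjusted p = 0.0590). DEN p53KO has no array in set 2 and DEN WT none in set 3. The 2 groups thus meet only in set 1 (2 p53KO and 3 WT arrays), and the fit over all arrays takes the set terms from other groups as well. Gmnn was at 6.67, 6.68, 6.54, 6.41 and 6.22 in DEN p53KO and 6.09, 5.78, 6.05, 4.62 and 4.73 in DEN WT, by 0.73 (SE 0.17, adjusted p = 0.0261). Rpa3 was at 8.08, 8.59, 7.94, 7.62 and 7.75 in DEN p53KO and 7.22, 7.45, 7.61, 5.11 and 5.23 in DEN WT, where the set 2 arrays were the 2 lowest, by 0.93 (SE 0.22, adjusted p = 0.0288). Its second probe set gave 0.93 (SE 0.15, adjusted p = 0.00297). Prim1 was at 7.99, 8.26, 8.51, 8.44 and 8.46 in DEN p53KO, above each of the WT values given before, by 0.99 (SE 0.25, adjusted p = 0.0355). Of 10 fits that each left out 1 array, Rfc4 kept its call in 9, Rpa3 in 8 and Gmnn and Prim1 in 7. Rfc4 lost it without DEN p53KO replicate 1 (adjusted p = 0.0660), and Gmnn, Rpa3 and Prim1 had their highest adjusted p without DEN p53KO replicate 2 (0.112, 0.194 and 0.136). With 4 of 47 higher and 0 lower, the background was 0.708% and 1.07% of all genes. The median was 0.18, against -0.01 over all genes. In set 1 it was 0.05, with 4 higher and 1 lower, against 1.55% and 4.36% of all genes. Without DEN p53KO replicate 1 no member was called. No marker was called in the fit over all arrays, whereas in set 1 4 of 8 macrophage and 4 of 7 endothelial markers were called lower, and their part in the result was not tested.

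DEN DKO against DEN WT asked the same of the double loss. Pola1, Prim1 and Pole2, Mcm4, Mcm6, Orc6 and Gmnn, Dbf4 and Gins1, Rfc4 and Rpa3, and Hells were higher, and Rfc2 was lower. DEN DKO and DEN WT also meet only in set 1, with 3 arrays each. Pola1, at the DEN DKO values of 6.78, 6.78, 6.92, 7.43 and 7.09, lay above every DEN WT array by 1.02 (SE 0.17, adjusted p = 0.000326). Hells was at 7.51, 7.28, 7.84, 8.12 and 7.63 in DEN DKO, likewise above every DEN WT array, by 1.20 (SE 0.27, adjusted p = 0.00467). Gmnn differed by 0.75 (SE 0.16, adjusted p = 0.00257), Rfc4 by 0.97 (SE 0.21, adjusted p = 0.00418) and Rpa3, at 7.87, 8.17, 8.24, 7.83 and 8.05 in DEN DKO, by 0.90 (SE 0.20, adjusted p = 0.00501). For Rfc2, at -0.69 (adjusted p = 0.00524), the groups overlapped through the set 2 arrays of WT but not in set 1. Prim1 was at 0.90 (adjusted p = 0.0108). These 7 calls were kept whichever array was left out. Without DEN DKO replicate 3 the calls ended for Pole2 at 0.68 (adjusted p = 0.0540 without it), Mcm4 at 0.54 (0.0748), Dbf4 at 0.87 (0.0591), Mcm6 at 0.63 (0.116) and Gins1 at 0.50 (0.157). The call of Orc6 at 0.56 ended without that array too, and without DEN DKO replicate 2, where its adjusted p was 0.0839. Of 10 such fits, Gins1 kept its call in 3, Mcm6 in 4, Mcm4 and Orc6 in 8 and Pole2 and Dbf4 in 9. So 12 of 47 were higher and 1 lower, where 2.69% and 9.14% of all genes were, at a median of 0.22 against -0.03 over all genes. Set 1 gave 10 and 1, against 2.88% and 7.97%. Endothelial markers were lower in the same arrays, 6 of 7 called, with a log2 summed signal of 8.61 to 8.97 in DEN DKO and 9.25 to 9.71 in DEN WT. Of the other lists 1 of 8 hepatocyte, 2 of 6 erythroid and 1 of 10 neutrophil markers were called lower. In set 1, 4 of 7 endothelial, 2 of 8 hepatocyte, 1 of 6 erythroid, 1 of 10 neutrophil and 1 of 7 stellate markers were called lower. The part of these markers in the result was not tested.

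The 3 genotype comparisons share the DEN WT arrays, so their values stand side by side without a test of overlap. For Hells they were 1.20 in DKO, 1.53 in RbKO and 1.04 in p53KO (adjusted p = 0.0606, not called), and for Rfc4 0.97, 0.90 and 1.08. For Pola1 they were 1.02 in DKO, 0.98 in RbKO and 0.25 in p53KO (adjusted p = 0.510). Mcm4 had 0.54, 0.88 and 0.48 (adjusted p = 0.106 in p53KO).

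**Figure D3:**
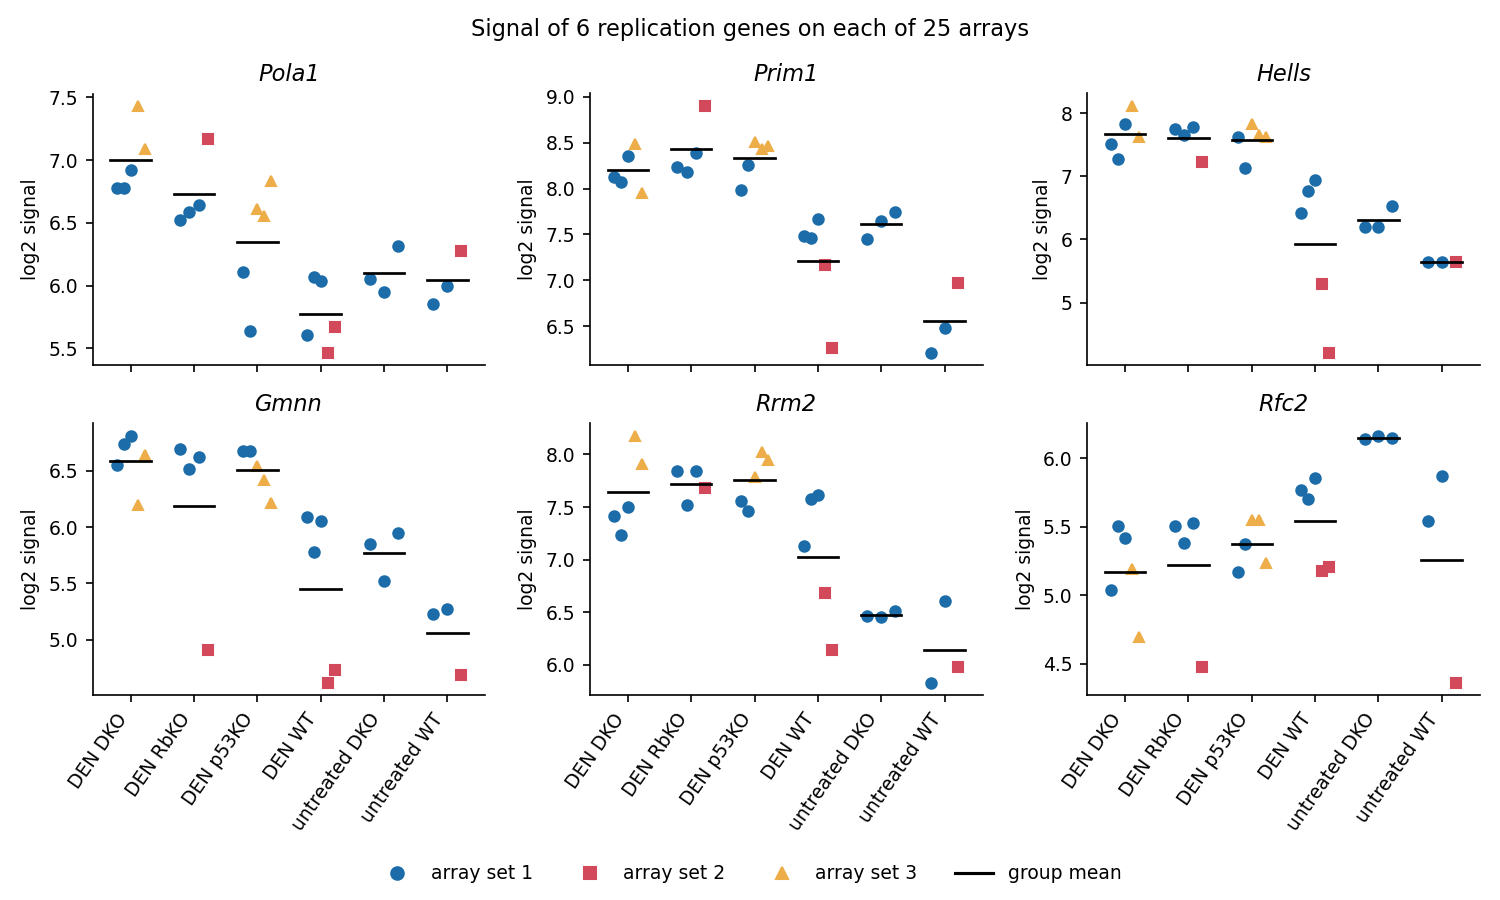
Log2 signal of Pola1, Prim1, Hells, Gmnn, Rrm2 and Rfc2 on each of 25 arrays by group, with colour and shape for the array set and a line for the group mean; the y axes differ and do not start at 0. The single highest Pola1 array is a DEN DKO one at 7.43, followed by the array labelled DEN RbKO replicate 4 at 7.17, and the highest Rfc2 arrays are those of untreated DKO at 6.14, 6.17 and 6.15.

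What the loss of Rb adds to that of p53 was asked by DEN DKO against DEN p53KO. Pola1 was the 1 member called, higher in DKO by 0.77 (SE 0.15, adjusted p = 0.00727). It was at 6.11, 5.64, 6.61, 6.55 and 6.84 in DEN p53KO, and the groups overlapped by DEN p53KO replicate 5 alone, a set 3 array. Within set 1 the difference was 0.95 and within set 3 0.59, and the call was kept in 10 of 10 fits that left out 1 array. With 1 of 47 higher and 0 lower, the background was 0.357% and 1.51% of all genes, and 23 of the 47 lay above 0. In set 1 there were 5 higher and 0 lower, against 2.37% and 2.50%, with the second primase gene Prim2 at 0.78 (adjusted p = 0.0165) and the histone chaperone gene Chaf1a at 0.68 (adjusted p = 0.0221). In the same set 1 arrays 3 of 8 macrophage and 2 of 10 neutrophil markers were called higher. In set 3 the median of the 47 was -0.12, in set 1 0.15.

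What the loss of p53 adds to that of Rb was asked by DEN DKO against DEN RbKO, and no member was called by limma, where 0.144% of all genes were called higher and 0.884% lower. In set 1 none was called either, against 0.545% and 1.18%. The median was -0.10. An unadjusted p under 0.05 was found for 6 genes, without a share of all genes at that cutoff. The smallest was that of the ring subunit gene Mcm3, at 5.25, 5.07, 5.09, 4.85 and 4.80 in DEN DKO and 5.64, 5.09, 5.54 and 5.25 in DEN RbKO. Those groups overlapped, and the difference was -0.52 (SE 0.19, adjusted p = 0.214), or -0.28 in set 1. In the same comparison 2 of 7 endothelial markers and 1 of 10 neutrophil markers were called lower. This does not show that the 2 genotypes are alike.

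Whether the 2 losses add up was asked by DKO minus p53KO minus RbKO plus WT, all after DEN. Prim1 was at -1.31 (SE 0.29, adjusted p = 0.0470) and Mcm4 at -0.81 (SE 0.19, adjusted p = 0.0470), so that for these genes the double loss differed from WT by less than the sum of the single losses. The Prim1 arrays of DEN DKO read 8.13, 8.07, 8.35, 8.49 and 7.95, and every array of the single losses was above the lowest of these. Mcm4 was at 6.11, 5.79, 6.36, 5.97 and 5.76 in DEN DKO and 6.10, 5.60, 6.10, 6.06 and 5.73 in DEN p53KO, and the highest single array, at 6.41, was an RbKO one. Neither was called in set 1, at -0.67 (adjusted p = 0.0738) and -0.59 (adjusted p = 0.204). Both calls rested on few arrays: they were kept in 8 of 19 and 7 of 19 fits that left out 1, with adjusted p of 0.195 and 0.180 without the array labelled DEN RbKO replicate 4. In all 0 were called above 0 and 2 below, against 0.100% and 0.326% of all genes, and in set 1 none, against 0.878% and 0.439%. The median was -0.27 over all sets and -0.06 in set 1.

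**Figure D4:**
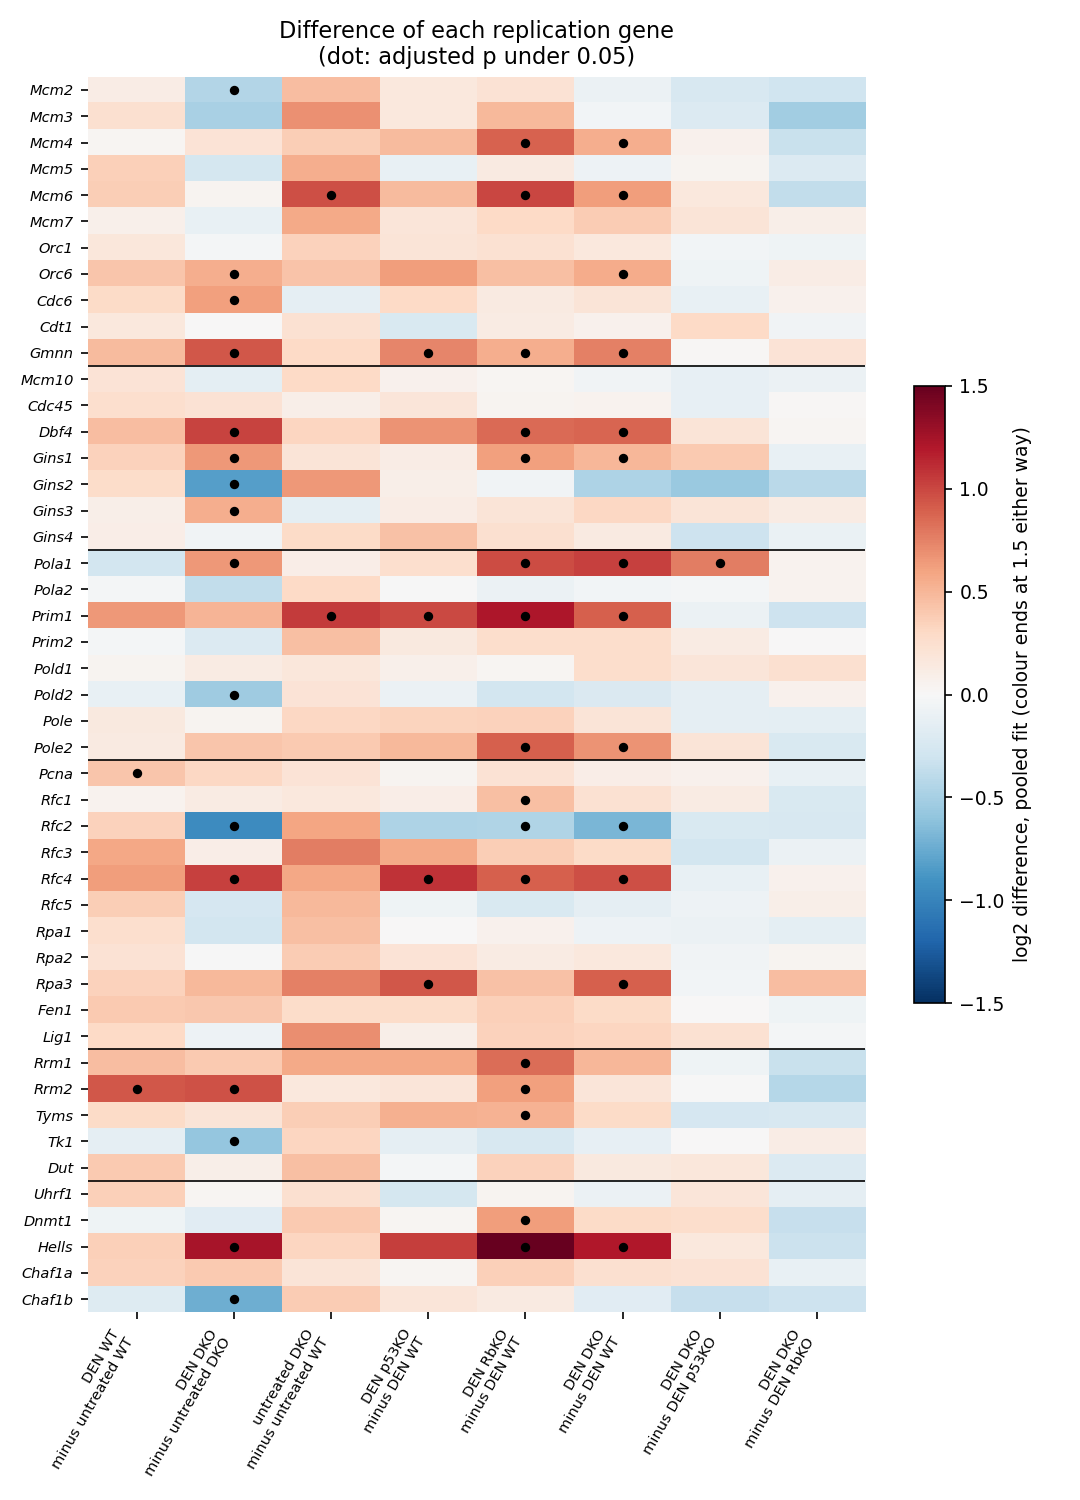
Log2 difference of each of 47 replication genes (down the page, in blocks by role) in 8 comparisons (columns), with red for higher and blue for lower in the group named first and a dot where the adjusted p was under 0.05. Dots in the RbKO column number 16 and span every role, and the column of DKO minus RbKO has none.

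In the fit over all arrays, 26 genes were called in at least 1 comparison and 21 in none. The share of all genes called in at least 1 comparison is not given, so these counts have no background. The 10 comparisons share 6 groups, so calls of 1 gene in several of them are not independent. Prim1 and Pola1 were called in 5 comparisons each, Gmnn, Rfc2 and Rfc4 in 4. Pola1 was higher in each of its calls, and Rfc2 was lower in each of its own. Those not called in that fit were Mcm3, Mcm5, Mcm7, Orc1, Cdt1, Mcm10, Cdc45, Gins4, Pola2, Prim2, Pold1, Pole, Rfc3, Rfc5, Rpa1, Rpa2, the flap nuclease gene Fen1, Lig1, the dUTPase gene Dut, Uhrf1 and Chaf1a, although some of them, such as Rfc3, Lig1, Prim2, Chaf1a and Mcm5, were called within set 1. Cdc7, the kinase that Dbf4 activates, was left out as dim, at a mean of 3.25 log2 under the limit of 3.33, and Orc1 at 3.35 lay just inside.

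Mcm5, Cdc45 and Uhrf1 stand for their roles and were not called in the fit over all arrays. Mcm5 was at 6.36, 6.33, 6.45, 6.10 and 5.87 in DEN DKO, 6.64, 6.17, 6.53 and 6.19 in DEN RbKO and 6.09, 5.93, 6.36, 6.30 and 6.15 in DEN p53KO. It was at 6.15, 6.43, 6.50, 6.06 and 5.94 in DEN WT, 6.35, 6.33 and 6.85 in untreated DKO and 5.87, 5.96 and 5.81 in untreated WT. The untreated WT arrays lay at the low end and reached DEN DKO replicate 5, DEN p53KO replicate 2 and the array labelled DEN WT replicate 5, and untreated DKO minus WT was 0.54 (SE 0.17, adjusted p = 0.136), or 0.60 in set 1 (adjusted p = 0.0418). Cdc45, a helicase cofactor, was at 5.74, 5.57, 5.83, 5.75 and 5.08 in DEN DKO, 5.67, 5.64, 5.66 and 5.35 in DEN RbKO and 5.68, 5.59, 5.69, 5.87 and 5.65 in DEN p53KO. It was at 5.38, 5.63, 5.71, 5.52 and 5.37 in DEN WT, 5.48, 5.11 and 5.67 in untreated DKO and 5.31, 5.24 and 5.29 in untreated WT. The DEN WT arrays all lay narrowly above the untreated WT arrays, the other groups overlapped with DEN WT, and DEN WT minus untreated WT was 0.25 (SE 0.14, adjusted p = 0.394). Uhrf1, which guides Dnmt1 to newly copied DNA, was at 6.58, 6.37, 6.47, 6.35 and 6.85 in DEN DKO, 6.76, 6.25, 6.86 and 6.13 in DEN RbKO and 6.35, 6.04, 6.26, 6.92 and 6.39 in DEN p53KO. It was at 5.88, 6.68, 6.91, 6.39 and 6.21 in DEN WT, 6.24, 6.36 and 6.63 in untreated DKO and 6.12, 6.14 and 5.96 in untreated WT. Its difference of DEN WT minus untreated WT was 0.36 (SE 0.19, adjusted p = 0.348), and the untreated arrays lay within the range of the DEN WT ones.

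In the groups not yet given, Pcna was at 10.16, 10.14, 10.36, 10.12 and 9.98 in DEN DKO, 10.23, 10.35, 10.39 and 9.87 in DEN RbKO, 10.19, 10.02, 10.00, 10.11 and 10.02 in DEN p53KO and 9.71, 9.89 and 10.06 in untreated DKO. All 3 mutant DEN groups overlapped with DEN WT, and no genotype difference of Pcna was called. Rrm2 was at 7.84, 7.52, 7.84 and 7.68 in DEN RbKO and 7.56, 7.46, 7.78, 8.02 and 7.95 in DEN p53KO, and the set 1 arrays of DEN WT, at 7.13, 7.57 and 7.61, overlap with both. Mcm6 was at 7.67, 7.46, 7.66, 7.38 and 7.40 in DEN DKO, 7.68, 7.60, 7.75 and 8.07 in DEN RbKO, 7.51, 6.82, 7.58, 7.53 and 7.39 in DEN p53KO and 6.82, 7.18, 7.34, 6.10 and 6.20 in DEN WT. Its DEN DKO and DEN RbKO arrays all lay above DEN WT, and p53KO overlapped through replicate 2. Gmnn was at 6.69, 6.51, 6.62 and 4.91 in DEN RbKO and 5.23, 5.27 and 4.69 in untreated WT, and its set 2 arrays were the lowest of both groups. Rfc4 was at 6.39, 6.24, 6.97 and 6.78 in DEN RbKO and 4.75, 5.04 and 5.36 in untreated WT, which did not overlap. Rfc2 was at 5.50, 5.38, 5.53 and 4.47 in DEN RbKO and 5.17, 5.38, 5.55, 5.55 and 5.24 in DEN p53KO, and all 9 of these arrays lay below every untreated DKO array. Rpa3 was at 7.44, 7.89, 8.01 and 5.65 in DEN RbKO, 7.44, 8.01 and 7.60 in untreated DKO and 6.71, 6.52 and 5.69 in untreated WT. In every group that set 2 reached, its arrays were the lowest for Rpa3. Pole2 was at 4.91, 4.51, 5.29, 5.57 and 5.30 in DEN DKO and 4.49, 4.82, 5.39, 5.47 and 5.07 in DEN p53KO, and both groups overlapped with DEN RbKO. Hells was at 7.63, 7.14, 7.83, 7.65 and 7.63 in DEN p53KO, 6.20, 6.21 and 6.52 in untreated DKO and 5.64, 5.64 and 5.64 in untreated WT. Every mutant DEN array of Hells lay above every DEN WT and untreated array.

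Of 32 other replication genes tested, not among the 48, 9 were called higher and 2 lower in DEN RbKO against DEN WT, where 5.23% and 6.13% of all genes were. The counts were 6 and 2 in DEN DKO against DEN WT (2.69% and 9.14% of all genes) and 2 and 0 in DEN p53KO against DEN WT (0.708% and 1.07%). They were 10 and 3 in DEN DKO against untreated DKO (4.49% and 16.5%), 2 and 0 in DEN WT against untreated WT (2.08% and 1.91%) and 1 and 0 in untreated DKO against untreated WT (0.865% and 0.244%). The shares called lower lay near or below those of all genes, and the list itself was not tested. The topoisomerase gene Top2a was at 1.36 in DEN DKO and 1.35 in DEN RbKO against DEN WT (adjusted p = 0.00349 and 0.00354), and the fork protector gene Tipin at 0.75 and 1.03 (0.0143 and 0.00175). The DKO call of Tipin ended without DEN DKO replicate 3 (adjusted p = 0.0531). Dctpp1, which clears faulty nucleotides, was lower at -0.85 and -0.73 (0.00411 and 0.00896). Among 18 genes of G1/S control, 4 were higher and 1 lower in DEN RbKO and also in DEN DKO against DEN WT. They included the cyclin E gene Ccne2 at 1.05 in DKO and 1.32 in RbKO (adjusted p = 0.00524 and 0.00136) and the cyclin A gene Ccna2 at 1.05 in DKO and 1.17 in RbKO (0.0152 and 0.00630). The cyclin D gene Ccnd1 was lower in DEN DKO against DEN RbKO at -0.98 (SE 0.21, adjusted p = 0.0174), a call that ended without DEN RbKO replicate 1 (adjusted p = 0.0972). Among 14 mitotic genes, 9 were higher in DEN RbKO and 8 in DEN DKO against DEN WT, with Bub1 at 1.48 in DKO and 1.39 in RbKO (0.00449 and 0.00565). In set 1 the RbKO counts were 3 higher and 1 lower for other replication genes, 2 and 0 for G1/S control and 4 and 0 for mitosis. There 0.959% and 2.38% of all genes were called higher and lower. The DKO mitotic count in set 1 was 8 and 0, against 2.88% and 7.97% of all genes. With the array labelled DEN RbKO replicate 4 left out, the RbKO call of Top2a ended (adjusted p = 0.0790), as did those of Ccna2 (0.131) and Bub1 (0.110).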

How the data were processed

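Total RNA of frozen mouse liver was amplified and hybridised to 25 arrays. The deposited log2 values were made by the authors with RMA in Affymetrix Expression Console 1.1, per the submitters' processing notes, and the genome build is not given in the sources used here. Array intensities were not used here, so the number of arrays limits the precision.

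Probe sets were named through the platform annotation: of 23409 listed, 21789 had 1 symbol and 1620 several, and 12146 were unlisted and unnamed. Each gene kept its probe set of highest mean. Genes under the 20th percentile of mean signal (3.33) were left out, 3987 of 19938. A linear model of group and array set over the 25 arrays was fitted in limma 3.58.1 (statmod 1.5.0, R 4.3.3). Tests were two-sided and p-values were adjusted by Benjamini-Hochberg over 15951 genes. A call is an adjusted p under 0.05. The fit was tested on simulated data. The alternatives changed the array set term, the filter, the probe set rule, the normalization and the arrays in the fit. One more, without the arrays of set 2, was chosen after seeing the data.

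The 48 members, the pathway lists (other replication genes, G1/S control, mitosis) and the marker lists (hepatocyte, erythroid, neutrophil, macrophage, lymphocyte, endothelium, stellate, cholangiocyte) were chosen with earlier results of these data known. Of the lymphocyte markers Cd79a and Ms4a1, and of the erythroid markers Rhag, were dim. Per-array values are given for 1 member of each role, for the 4 called members of smallest p in each comparison, or the member of smallest p where none was called. Called members may be named. Non-members named are Rb1 and called genes of the pathway lists. Promoters are those of the 3 called members of smallest p that have a promoter entry in the comparison with most calls, and 2 comparisons tied.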

Additional observations from a re-analysis of the deposited data

Results flagged for a closer look

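Of 68 pairs of a member and a group of 4 or 5 arrays, 5 held an array far from the others, where chance gives about 1 in 20. The array labelled DEN RbKO replicate 4, in set 2, was low for Cdc45 at 5.35, Rfc2 at 4.47 and Gmnn at 4.91. DEN p53KO replicate 2 was low for Mcm6 at 6.82 and Hells at 7.14. The array labelled DEN RbKO replicate 4 also had the highest Rb1 signal of all, at 6.28, and the array labelled DEN WT replicate 5 had 5.04, below every DEN DKO and DEN RbKO array.

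The response to DEN differed between DKO and WT, by the test of the difference itself, for Gins2 at -1.11, Pola1 at 0.93 and Rfc2 at -1.28. This was 1 of 47 members above 0 and 2 below, against 1.36% and 8.54% of all genes. The share below 0 was thus no larger than among all genes. The Pola1 call ended without untreated WT replicate 3. By the same kind of test, the Rb difference was unlike in p53KO and p53 WT livers after DEN for Mcm4 at -0.81 and Prim1 at -1.31 in the fit over all arrays. Neither was called within set 1. In 19 fits that left out 1 array each, Mcm4 kept its call in 7 and Prim1 in 8.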

How the results depend on the processing

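In DEN WT against untreated WT, where 2 were called, the count was 0 with no set term, 1 with the set as a random block, 15 in set 1 alone, 1 without a filter on dim genes, 1 after quantile normalization, 0 with those groups fitted alone and 13 without set 2. In untreated DKO against untreated WT, also 2, these counts were 1 with no set term, 15 in set 1, 1 without a filter, 0 after quantile normalization, 17 with those groups alone and 9 without set 2. For the difference of the responses (3) the count was 1 with no set term and 8 with each array centred on its median. In p53KO against WT (4) it was 15 with no set term and 9 with the random block. In RbKO against WT (16) it was 8 with no set term, 7 in set 1 and 5 without set 2. In DKO against WT (13) it was 4 with the groups alone, and in DKO against p53KO (1) it was 0 with no set term, 5 in set 1 and 2 without set 2. The 2 calls of the additivity contrast became 0 with no set term, in set 1, without a filter, with centring, after quantile normalization, with the groups alone and without set 2. The cause of these moves was not tested. The share of all genes called moved with the setting as well. Without set 2 it was 3.2% called higher and 3.61% lower for DEN in WT and 2.07% and 1.16% for untreated DKO against WT. It was 0.307% and 0.903% for RbKO against WT and 0.884% and 3.44% for DKO against p53KO. Outside the main fit, set 1 and the fit without set 2, no share of all genes is given beside these counts. Over these settings the median of the members ranged from -0.32 to -0.01 for the difference of responses, -0.01 (with centring) to 0.18 for DEN in DKO, 0.05 to 0.37 for p53KO against WT, 0.17 to 0.40 for DKO against WT, -0.03 to 0.15 for DKO against p53KO, -0.15 to 0.02 (no set term) for DKO against RbKO and -0.42 to -0.06 for additivity.

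Leaving out 1 array at a time gave 0 to 9 calls for DEN in WT, 11 to 17 for DEN in DKO, 2 to 4 for the difference of responses and 0 to 4 for untreated DKO against WT. After DEN it gave 0 to 5 for p53KO, 6 to 17 for RbKO and 7 to 13 for DKO against WT, 1 to 3 for DKO against p53KO, 0 for DKO against RbKO and 0 to 4 for additivity. Of 59 called differences, none turned sign in 649 values under the other settings, 515 kept their call and 134 lost it. The losses were uneven over the settings. Leaving out the array whose absence gave the highest adjusted p ended 34 of the 59 calls. Fits with no set term and with the groups alone ended 20 each. The filter at the 40th percentile and the mean of all probe sets ended 0. No paired analysis was possible because the labels number arrays, not matched animals, and replicate numbers were given in accession order.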
